A study of Homo sapiens with 8 samples.

Results

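Neuronal cytoskeleton, synapse and secretory genes were followed in human neuroblastoma cells exposed to a PRMT5 inhibitor. The members were 38 genes on a list of names, each found by symbol and Ensembl identifier in GENCODE 29, among 58721 genes counted. No threshold on a measured value entered the list, but it was chosen with earlier results of these data known. Shares of members passing, set beside those of all genes, are therefore descriptions and not tests of the list. It comprised 5 neuronal intermediate filaments, 5 microtubule proteins, 6 growth cone and stathmin proteins, 9 synaptic vesicle and SNARE proteins, 5 granins and secretory proteins, 5 neuronal RNA-binding proteins, and 3 genes for adhesion molecules and a ubiquitin hydrolase.

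There were 4 groups of 2 libraries each: NGP cells with JSK591, NGP cells with DMSO, CHLA-20 cells with JSK591 and CHLA-20 cells with DMSO. NGP and CHLA-20 are established human neuroblastoma lines. NGP was kept in RPMI1640 and CHLA-20 in IMEM with insulin, transferrin and selenite, both with fetal bovine serum, so the line and its medium cannot be told apart. Treatment lasted 6 days. DMSO was the vehicle, and the inhibitor was given at a dose labelled as the IC50 with no concentration. The samples name the compound JSK591 and the treatment description GSK591, and JSK591 is used here. Each line stands for 1 tumour. The labels do not say that the replicates come from separate cultures, and p-values therefore cover only the spread among these libraries, possibly a technical one.

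Neuroblastoma arises from the sympathoadrenal branch of the neural crest, and its cells carry parts of the programme of sympathetic neurons and chromaffin cells. That programme builds neurofilaments and stabilised microtubules for the axon, growth cone proteins for its tip, vesicles and SNARE proteins for release, and dense-core granules filled with granins. PRMT5, the enzyme the compound targets, dimethylates arginines symmetrically, in histones as well as in proteins of the splicing machinery.

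Libraries held 33188542 to 34914902 counts assigned to genes. The 10 neuroblastoma identity markers, among them HAND2 and TH, were all above 3 counts in every group and summed to between 2451 and 4618 counts-per-million (CPM, on library sizes scaled by TMM). Blood markers summed to at most 0.462 CPM, Schwann cell and glia markers to between 4.31 and 9.57 CPM, and epithelium markers to between 2.83 and 9.97 CPM. Fibroblast and mesenchymal markers had high sums in both lines, with different genes leading. They summed to 840 to 877 CPM in NGP with JSK591 and 754 to 770 CPM in NGP with DMSO. In CHLA-20 they summed to 507 to 519 CPM with JSK591 and 583 to 589 CPM with DMSO. With DMSO the highest were COL1A1 (547 CPM) and PDGFRA (109 CPM) in NGP, and LUM (158 CPM) and DCN (134 CPM) in CHLA-20. COL1A2 was at 0.164 CPM in NGP with DMSO, and FAP was at or under 3 counts in every group. The part of these markers in the results was not tested. PRMT5 messenger RNA itself did not pass the test in either line, with a log2 change with JSK591 of -0.06 ± 0.048 (SE) in NGP and 0.08 ± 0.050 in CHLA-20. The compound acts on the protein, so this level does not check the treatment. In cell populations of this kind, fewer cells with a transcript and less of it per cell cannot be told apart.

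Of the 38 members, 35 had enough counts to be tested. CHGA, MAPT and SCG5 did not. Together the members took 4969.8 and 4999.8 CPM in NGP with JSK591, against 5439 and 5440.8 CPM in NGP with DMSO. In CHLA-20 they took 8774 and 8782 CPM with JSK591, against 8601 and 8617 CPM with DMSO. The 2 libraries of each group lay close together, and the JSK591 libraries were below the DMSO libraries in NGP and above them in CHLA-20.

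**Figure D1:**
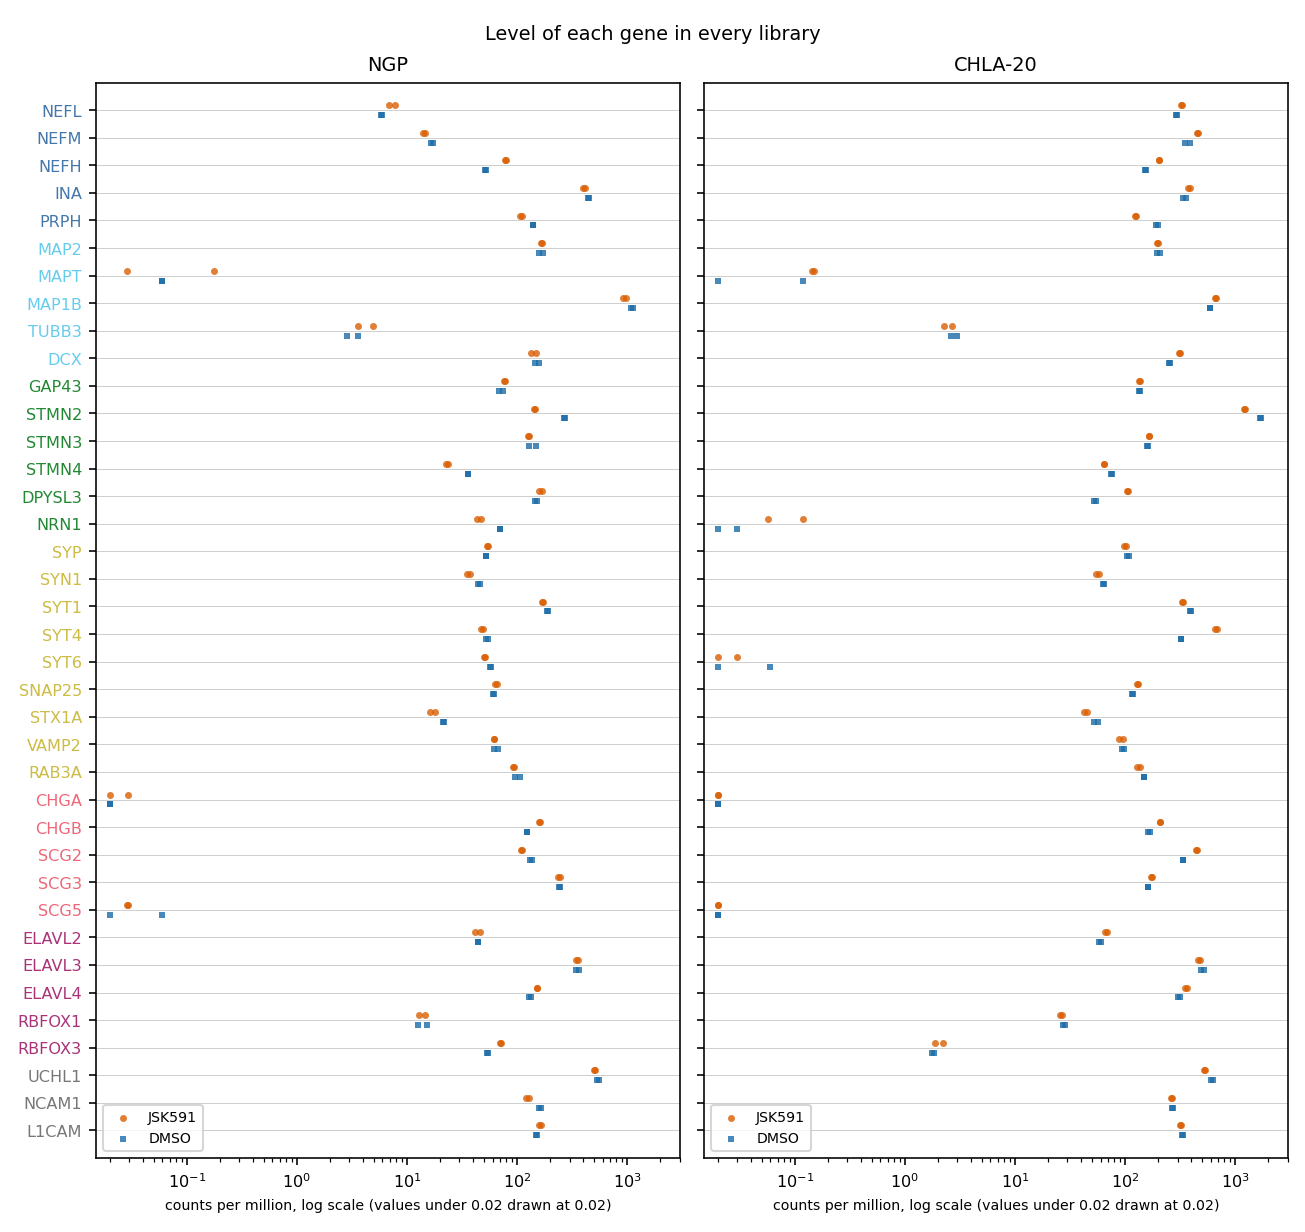
Level of each member in CPM (horizontal log axis) in every library, NGP in the left panel and CHLA-20 in the right, with orange circles for JSK591 and blue squares for DMSO and gene names coloured by role. Replicates of a group nearly coincide for most genes, NEFL stands at 5.87 to 7.82 CPM in NGP and 290 to 329 CPM in CHLA-20, and NRN1 and SYT6 are near 0 in CHLA-20.

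Per unit of exon length, levels can be compared between genes. In transcripts-per-million (TPM, mean ± SD of 2 libraries), UCHL1, a ubiquitin hydrolase abundant in neurons, led in NGP with 543 ± 8.5 TPM with JSK591 and 600 ± 13 TPM with DMSO. INA followed it there, with 308 ± 2.5 TPM with JSK591 and 347 ± 1.1 TPM with DMSO. In CHLA-20 the highest was STMN2, which binds tubulin in growing axons, with 1199 ± 25 TPM with JSK591 and 1695 ± 23 TPM with DMSO. UCHL1 came after it with 534 ± 1.4 TPM with JSK591 and 639 ± 4.0 TPM with DMSO, and SCG2 next with 381 ± 2.4 TPM with JSK591 and 292 ± 4.4 TPM with DMSO. The loci of the members described at most length lie, in GRCh38, at chr22:29480230-29491390 (NEFH, plus strand), chr12:49293252-49298686 (PRPH, plus), chr5:147390811-147510056 (DPYSL3, minus), chr18:43267878-43277650 (SYT4, minus), chr2:223596940-223602503 (SCG2, minus) and chr20:5911430-5925361 (CHGB, plus), all as spans of the whole gene. The leading places in TPM were the same when the longest transcript replaced the union of exons as the length.

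Promoter sequences were available from RefSeq (GRCh38.p14) for 27 of the 38 members, which have 64 windows among them, as windows of 300 bases from 250 bases before to 50 after an annotated start. Printed here, 5′ to 3′ on the gene's strand, are the window of the member with the largest rise in CHLA-20 (SYT4), of the filament gene that fell most in that line (PRPH), of a member well counted in NGP and hardly at all in CHLA-20 (NRN1), and of the 1 member whose window held both blocks of the REST motif at the spacing searched (SYN1; REST is a repressor of neuronal genes). The windows lie at chr18:43277441-43277740 on the minus strand (SYT4), chr12:49294897-49295196 on the plus strand (PRPH), chr6:6003976-6004275 on the minus strand (NRN1) and chrX:47619808-47620107 on the minus strand (SYN1). Capitals mark the motifs described after the sequences.
SYT4: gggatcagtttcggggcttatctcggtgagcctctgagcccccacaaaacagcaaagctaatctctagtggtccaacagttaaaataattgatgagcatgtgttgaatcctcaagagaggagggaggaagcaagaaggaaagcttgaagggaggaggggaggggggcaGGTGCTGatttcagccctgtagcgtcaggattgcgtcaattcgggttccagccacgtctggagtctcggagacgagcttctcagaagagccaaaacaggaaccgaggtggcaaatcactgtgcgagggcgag
PRPH: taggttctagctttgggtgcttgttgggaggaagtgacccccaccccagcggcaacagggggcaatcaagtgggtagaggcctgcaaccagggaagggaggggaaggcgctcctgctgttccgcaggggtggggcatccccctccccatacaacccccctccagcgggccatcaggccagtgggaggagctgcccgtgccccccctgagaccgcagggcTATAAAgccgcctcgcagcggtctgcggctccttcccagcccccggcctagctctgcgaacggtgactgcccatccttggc
NRN1: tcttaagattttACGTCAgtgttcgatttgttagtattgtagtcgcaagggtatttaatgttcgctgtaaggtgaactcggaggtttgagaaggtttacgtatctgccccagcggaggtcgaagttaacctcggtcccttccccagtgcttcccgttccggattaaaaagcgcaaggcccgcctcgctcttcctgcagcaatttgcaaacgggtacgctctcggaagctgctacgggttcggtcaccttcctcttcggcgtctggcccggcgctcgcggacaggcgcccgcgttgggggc
SYN1: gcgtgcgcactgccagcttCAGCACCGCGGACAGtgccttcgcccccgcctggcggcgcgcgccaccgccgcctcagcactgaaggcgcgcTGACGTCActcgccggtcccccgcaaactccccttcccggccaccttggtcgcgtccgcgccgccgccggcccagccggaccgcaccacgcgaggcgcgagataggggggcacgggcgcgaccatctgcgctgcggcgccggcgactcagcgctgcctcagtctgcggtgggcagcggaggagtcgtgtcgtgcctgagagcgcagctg

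Motifs were searched as exact letters on both strands in all 35116 windows. The left block of the REST site, CAGCACC, was in 7.75% of all windows and in 5 of the members' 64 windows, 1 for each of 5 members (L1CAM, RBFOX1, SCG3, SYN1 and SYT4). The right block, GGACAG, was in 20.5% of all windows and in 22 of the members' 64, which belong to 13 members and may overlap within a gene, and a right block that stands alone is left in lower case. CAGCACC followed after 2 bases of any kind by GGACAG, a motif that contains both blocks, occurred in 18 windows, or 0.0513%. That of SYN1 is 1 of them, and the first run of capitals there is this match. In SYT4 the capitals are a left block read on the other strand. TGACGT, the core of the cyclic AMP response element, was in 7.98% of all windows and in 8 of the members' 64, those of CHGA, NRN1, RAB3A, RBFOX3 and SYN1. In SYN1 it is present on both strands in 1 overlapping run, and in NRN1 on the other strand. TATAAA, the core of a TATA box, was in 11.5% of all windows and in 10 of the members' 64, those of DCX, ELAVL2, MAP1B, PRPH, RBFOX3 and UCHL1. These are matches of letters and say nothing of binding. REST messenger RNA fell in both lines, to 12.7 CPM with JSK591 against 14.8 CPM with DMSO in NGP (log2 change -0.22 ± 0.082, SE, adjusted p = 0.0314) and to 13.3 CPM with JSK591 against 17.2 CPM with DMSO in CHLA-20 (-0.37 ± 0.080, adjusted p = 9.35e-05). The call for REST in NGP was lost without NGP DMSO replicate 2 (-0.19), without NGP JSK591 replicate 2 (-0.14), with DESeq2 (-0.23), with total count scaling (-0.19) and with no filter on low counts (-0.22).

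The first question was how members move when PRMT5 is inhibited in NGP. With JSK591 9 members rose and 17 fell of the 35 tested, so that 74.3% passed (edgeR, adjusted p under 0.05), against 36.2% of all genes tested. For rises alone the share over all genes was 16.8%, and for falls 19.4%. The JSK591 and DMSO libraries did not overlap for 28 of the 35, against 65.3% of all genes. Members are well counted: among genes with a mean of at least 10 CPM, 52.3% passed (19.8% higher and 32.5% lower). Of the 34 members at that level 73.5% did. The changes were small. The median log2 change of the tested members was -0.10, against 0.00 over all genes, and the median size without sign was 0.14, against 0.22 over all genes. DESeq2 called 5 members higher in place of 9, as did the removal of the trend with GC content, and 5 were also called when NGP DMSO replicate 2 was left out.

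In CHLA-20, by the same comparison, 14 members rose and 9 fell of 35. That is 65.7% passing, against 39.4% of all genes tested, 16.9% higher and 22.4% lower. The groups did not overlap for 29 of the 35, against 66.6% of all genes. Among genes with a mean of at least 10 CPM the share passing was 57.1% (24.1% higher and 33.0% lower), and among the 34 members it was 67.6%. The median log2 change of members was 0.00, against -0.02 over all genes, and the median size without sign was 0.18, against 0.23.

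Between the lines, 18 members were called in both. Of these, 5 rose in both lines (CHGB, DPYSL3, ELAVL4, NEFH and NEFL), 8 fell in both (PRPH, RAB3A, STMN2, STMN4, STX1A, SYN1, SYT1 and UCHL1) and 5 fell in NGP and rose in CHLA-20 (INA, MAP1B, NEFM, SCG2 and SYT4). The direction was thus shared by 13 of 18, or 72.2%, against 2850 of 3684 genes (77.4%) over the whole table. Calls held in both lines under every alternative fit for CHGB, ELAVL4 and NEFH, which rose. They also held for PRPH, STMN2, STMN4, STX1A and SYT1, which fell, and for MAP1B and SCG2, which went opposite ways. The remaining members of the 18 lost a call under at least 1 such fit. The test of the difference itself, NGP minus CHLA-20, called 3 members higher and 13 lower of 35, or 45.7%, against 27.7% of all genes (15.2% higher and 12.5% lower). Among genes with a mean of at least 10 CPM it called 42.9% (21.2% higher and 21.7% lower), and of the 34 members 47.1%. With the trend with GC content removed, 1 member was called higher in place of 3. That was SYT1 (0.14), and none of the 3 kept its call, with NEFH at 0.03, PRPH at 0.09 and L1CAM at -0.01. Where leaving out 1 library cost their calls, values were 0.11 to 0.18 for NEFH and 0.09 to 0.15 for L1CAM.

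**Figure D2:**
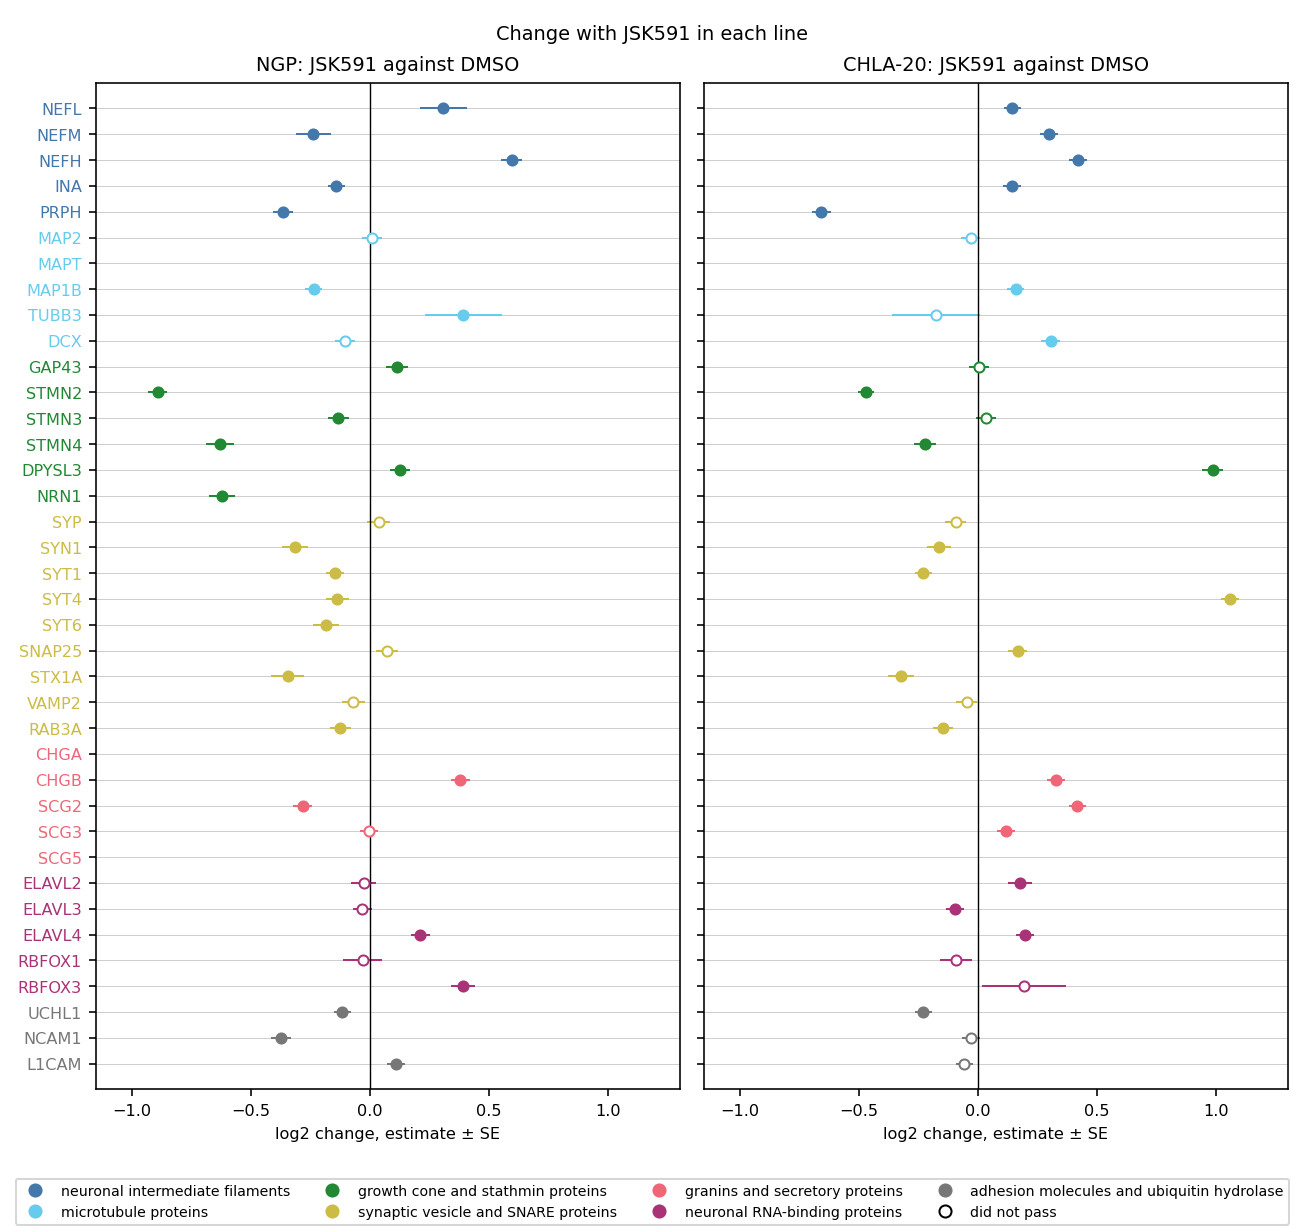
Log2 change with JSK591 against DMSO (horizontal axis, estimate ± SE) of each member in NGP (left) and CHLA-20 (right), coloured by role, with open circles where the adjusted p was 0.05 or more. STMN2 lies farthest left in NGP at -0.89, SYT4 and DPYSL3 lie farthest right in CHLA-20 at 1.06 and 0.98, CHGA, MAPT and SCG5 were not tested, and NRN1 and SYT6 are not drawn in CHLA-20, where they had 7 and 3 counts.

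The neuronal intermediate filaments are the proteins that set the calibre of axons. NEFL, NEFM and NEFH form the neurofilament triplet, while INA and PRPH assemble with them in central and peripheral neurons. All 5 passed in each line, against 36.2% of all genes in NGP and 39.4% in CHLA-20, and against 52.3% in NGP and 57.1% in CHLA-20 of genes with a mean of at least 10 CPM. The counts of the other groups of members stand beside the same shares. In NGP 2 rose and 3 fell, and in CHLA-20 4 rose and PRPH fell. NEFH, the heavy chain on chromosome 22, had 77.7 and 79.4 CPM in NGP with JSK591, against 51.8 and 52.2 CPM with DMSO. CHLA-20 libraries had 204 and 205 CPM with JSK591, against 151 and 155 CPM with DMSO. The JSK591 libraries were the higher in both lines, with no overlap. The log2 changes were 0.59 ± 0.045 (SE) in NGP, or 1.51-fold, with adjusted p = 6.78e-17, and 0.42 ± 0.039 in CHLA-20, or 1.34-fold, with adjusted p = 4.67e-14. The difference of NEFH between lines, 0.17 ± 0.060 (adjusted p = 0.0214), was lost under 11 of 16 alternatives, at 0.03 to 0.18, among them the ones without any 1 library other than CHLA-20 DMSO replicate 1.

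PRPH, peripherin, moved the other way. It had 107 and 111 CPM in NGP with JSK591, against 140.0 and 140.4 CPM with DMSO, and in CHLA-20 125 and 124 CPM with JSK591, against 200.1 and 193 CPM with DMSO. Both lines had lower values with JSK591 and no overlap, and with JSK591 the levels of the 2 lines lay nearer to each other than with DMSO. The log2 change was -0.37 ± 0.040 in NGP (adjusted p = 4.02e-11) and -0.66 ± 0.039 in CHLA-20 (adjusted p = 1.20e-21), so that the JSK591 level was 0.776 of the DMSO level in NGP and 0.634 of it in CHLA-20. The difference between lines was 0.29 ± 0.056 (adjusted p = 3.97e-05), and it was 0.09 and no longer passed with the trend with GC content removed. Of the PRPH exon bases, 56.2% lie across from the antisense gene AC125611.4, which had 267 counts over the 8 libraries. Whether reads were counted by strand is not given in the sources used here. PRPH and AC125611.4 have separate counts, and how reads from their shared bases were assigned is not known.

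NEFM and NEFL, the medium and light chains, sit 31.86 kb apart on chromosome 8 in opposite orientation. NEFM had 14.7 and 14.0 CPM in NGP with JSK591, against 17.3 and 16.5 CPM with DMSO, whereas in CHLA-20 it had 457 and 448 CPM with JSK591, against 350.1 and 386 CPM with DMSO. It was lower with JSK591 in NGP and higher in CHLA-20, without overlap in either. On the log2 scale the changes were -0.24 ± 0.073 in NGP (adjusted p = 0.00695) and 0.30 ± 0.038 in CHLA-20 (adjusted p = 1.44e-09), with a difference of -0.54 ± 0.082 (adjusted p = 4.24e-07). The call for NEFM in NGP was lost without NGP JSK591 replicate 2 (-0.20). Antisense gene AF106564.1, with 761 counts over the 8 libraries, lies across from 38.9% of NEFM exon bases.

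NEFL had 6.84 and 7.82 CPM in NGP with JSK591, against 5.87 and 5.96 CPM with DMSO, and in CHLA-20 322 and 329 CPM with JSK591, against 290 and 299 CPM with DMSO. Values were higher with JSK591 in both lines, but from very different levels. The log2 changes were 0.31 ± 0.099 in NGP (adjusted p = 0.0108) and 0.14 ± 0.037 in CHLA-20 (adjusted p = 0.0011), and their difference of 0.16 ± 0.106 did not pass. The NGP call of NEFL, which rests on 197 to 266 counts a library, was lost without NGP DMSO replicate 1 (0.27), NGP DMSO replicate 2 (0.30) or NGP JSK591 replicate 2 (0.21). INA, alpha-internexin, had 400 and 412 CPM in NGP with JSK591, against 445 and 449 CPM with DMSO, and 375 and 390 CPM in CHLA-20 with JSK591, against 355 and 338 CPM with DMSO. It was lower with JSK591 in NGP and higher in CHLA-20. Its log2 changes were -0.14 ± 0.037 in NGP (adjusted p = 0.00141) and 0.14 ± 0.037 in CHLA-20 (adjusted p = 0.00126), with a difference of -0.28 ± 0.052 (adjusted p = 1.65e-05). Without CHLA-20 JSK591 replicate 2 the CHLA-20 call of INA was lost (0.12).

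In the group of microtubule proteins, MAP1B and DCX are expressed in growing neurons, MAP2 in dendrites, MAPT (tau) in axons, and TUBB3 is the neuronal beta-tubulin. In NGP 1 of the 4 tested rose and 1 fell, and in CHLA-20 2 rose and none fell. MAP1B had 969 and 924 CPM in NGP with JSK591, against 1138 and 1094 CPM with DMSO. Levels in CHLA-20 were 665 and 653 CPM with JSK591, against 594 and 586 CPM with DMSO. JSK591 values were the lower in NGP and the higher in CHLA-20, and the lines lay nearer to each other with JSK591 than with DMSO. On the log2 scale the changes were -0.24 ± 0.036 (adjusted p = 1.64e-07) in NGP and 0.16 ± 0.036 (adjusted p = 0.000257) in CHLA-20, with a difference of -0.40 ± 0.051 (adjusted p = 6.56e-09).

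DCX, doublecortin, which stabilises microtubules in migrating neurons, had 150.0 and 135 CPM in NGP with JSK591, against 160 and 147 CPM with DMSO. In CHLA-20 it had 314 and 311 CPM with JSK591, against 257 and 249 CPM with DMSO. The NGP groups overlapped and the CHLA-20 groups did not. The log2 change was 0.31 ± 0.040 in CHLA-20 (adjusted p = 3.64e-09). In NGP it was -0.10 ± 0.043 and missed the threshold (adjusted p = 0.0505), which it passed under 8 of 17 alternatives, among them those without NGP DMSO replicate 2 (-0.18), NGP JSK591 replicate 1 (-0.20), CHLA-20 DMSO replicate 1 (-0.10) or CHLA-20 DMSO replicate 2 (-0.12), and with a replicate block (-0.10). The DCX difference between lines was -0.41 ± 0.059 (adjusted p = 9.65e-08).

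MAP2 had 168 and 167 CPM in NGP with JSK591, against 174 and 159 CPM with DMSO, and 195 and 201 CPM in CHLA-20 with JSK591, against 207 and 197 CPM with DMSO. The groups overlapped in both lines and no change passed, with log2 changes of 0.01 ± 0.041 in NGP and -0.03 ± 0.040 in CHLA-20.

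TUBB3 was low for a neuronal marker. It had 3.58 and 4.94 CPM in NGP with JSK591, against 3.61 and 2.88 CPM with DMSO, and 2.68 and 2.29 CPM in CHLA-20 with JSK591, against 2.99 and 2.64 CPM with DMSO. Groups overlapped in both lines. The log2 change in NGP was 0.39 ± 0.16 (adjusted p = 0.0499), and it was lost under 9 of 17 alternatives. They include leaving out NGP JSK591 replicate 2 (0.15), NGP DMSO replicate 2 (0.22), CHLA-20 DMSO replicate 2 (0.37), CHLA-20 JSK591 replicate 1 (0.39) or CHLA-20 JSK591 replicate 2 (0.39). In CHLA-20 it was -0.18 ± 0.18 and did not pass. The difference between lines of TUBB3, 0.57 ± 0.24, did not pass (adjusted p = 0.0756), but it passed without NGP JSK591 replicate 1 (0.73). The annotation holds a readthrough gene on the same strand, AC092143.1, whose exons cover 35.8% of TUBB3 exon bases and 89.5% of its principal transcript. AC092143.1 had 0 counts in every library. The share of TUBB3 reads lost to this overlap was not tested.

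The growth cone and stathmin proteins govern the tip of the growing axon. Stathmins bind free tubulin, GAP43 and NRN1 (neuritin) act at the membrane in outgrowth, and DPYSL3 is a collapsin response mediator. All 6 passed in NGP, 2 higher and 4 lower. In CHLA-20 1 rose and 2 fell. STMN2 had 144 and 146 CPM in NGP with JSK591, against 267 and 271 CPM with DMSO. CHLA-20 libraries had 1232 and 1213 CPM with JSK591, against 1703 and 1685 CPM with DMSO. JSK591 libraries were lower in both lines, without overlap. The log2 changes were -0.89 ± 0.038 (adjusted p = 1.97e-28) in NGP and -0.47 ± 0.035 (adjusted p = 7.81e-18) in CHLA-20, so that 0.539 of the DMSO level remained in NGP and 0.721 in CHLA-20. The difference, -0.42 ± 0.051, passed (adjusted p = 1.59e-09).

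STMN4 showed the same direction in both lines. It had 22.6 and 23.7 CPM in NGP with JSK591, against 35.6 and 35.9 CPM with DMSO, and 64.6 and 64.9 CPM in CHLA-20 with JSK591, against 76.1 and 75.0 CPM with DMSO. The groups did not overlap. Its log2 changes were -0.63 ± 0.058 (adjusted p = 8.38e-14) in NGP and -0.22 ± 0.047 (adjusted p = 7.55e-05) in CHLA-20, and the difference of -0.41 ± 0.075 passed (adjusted p = 1.79e-05). STMN3 had 128 and 126 CPM in NGP with JSK591, against 130 and 148 CPM with DMSO, and 166 and 164 CPM in CHLA-20 with JSK591, against 158 and 163 CPM with DMSO. The NGP fall of -0.13 ± 0.044 (adjusted p = 0.0126) was lost without NGP DMSO replicate 2, the highest of the 4 libraries (-0.05), without NGP JSK591 replicate 2 (-0.12), with total count scaling (-0.11) and with low counts unfiltered (-0.13). In CHLA-20 the log2 change of STMN3 was 0.04 ± 0.042 and did not pass, but with the GC trend removed it was 0.20 and passed. The difference of -0.17 ± 0.061 (adjusted p = 0.0319) was lost without NGP DMSO replicate 2 (-0.11), NGP JSK591 replicate 2 (-0.15), CHLA-20 DMSO replicate 1 (-0.15), CHLA-20 JSK591 replicate 1 (-0.16) or CHLA-20 JSK591 replicate 2 (-0.18), with total count scaling (-0.16) and with low counts unfiltered (-0.17).

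DPYSL3 had 168 and 158 CPM in NGP with JSK591, against 151 and 146 CPM with DMSO. Levels in CHLA-20 were 106 and 105 CPM with JSK591, against 54.6 and 52.3 CPM with DMSO. The JSK591 libraries were higher in both lines, and in CHLA-20 the level almost doubled. The log2 change was 0.13 ± 0.040 in NGP (adjusted p = 0.00991) and 0.98 ± 0.045, or 1.98-fold, in CHLA-20 (adjusted p = 6.62e-27), with a difference of -0.86 ± 0.061 (adjusted p = 1.13e-17). The NGP call of DPYSL3 was lost without NGP DMSO replicate 2 (0.09), without NGP JSK591 replicate 1 (0.06), with DESeq2 (0.11) and with the trend with GC content removed (0.08).

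GAP43 had 75.7 and 78.3 CPM in NGP with JSK591, against 68.4 and 73.9 CPM with DMSO, and 137 and 135 CPM in CHLA-20 with JSK591, against 134 and 137 CPM with DMSO. The NGP log2 change of 0.11 ± 0.045 (adjusted p = 0.0408) was lost under 10 of 17 alternatives, at 0.03 to 0.12. They included leaving out any 1 library other than CHLA-20 DMSO replicate 1 and NGP DMSO replicate 2. In CHLA-20 the change of GAP43 was 0.00 ± 0.041.

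NRN1 had 43.8 and 47.1 CPM in NGP with JSK591, against 69.5 and 70.2 CPM with DMSO. In CHLA-20 it was nearly uncounted, with 2 and 4 counts with JSK591 and 0 and 1 counts with DMSO. NGP values were lower with JSK591, without overlap, with a log2 change of -0.62 ± 0.053 (adjusted p = 6.53e-15). The CHLA-20 values, 6 counts in all against 1, gave a ratio of 5.94 with a 95% interval of 0.720 to 273 (exact, counting error only) and did not pass in the fit. The difference between lines was called (adjusted p = 0.0487) with a fitted log2 value of -2.93 that rests on those 7 counts. For NRN1 it was lost under 10 of 15 alternatives, among them all those leaving out 1 library except CHLA-20 DMSO replicate 2, at -3.35 to -2.08.

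The synaptic vesicle and SNARE proteins carry out calcium-triggered release. SYT1, SYT4 and SYT6 are synaptotagmins, SNAP25, STX1A and VAMP2 form the SNARE complex, and SYP, SYN1 and RAB3A are vesicle proteins. In NGP 6 of the 9 fell and none rose, where 19.4% of all genes and 32.5% of those with a mean of at least 10 CPM fell. In CHLA-20 4 fell and 2 rose, where 22.4% of all genes and 33.0% of those at that level fell. SYT4, a synaptotagmin with weak calcium binding, had 47.2 and 49.2 CPM in NGP with JSK591, against 54.2 and 51.8 CPM with DMSO. In CHLA-20 it had 653 and 682 CPM with JSK591, against 320.4 and 321 CPM with DMSO. JSK591 values were slightly lower in NGP and far higher in CHLA-20, with no overlap in either line. The log2 change was 1.06 ± 0.037, or 2.08-fold, in CHLA-20 (adjusted p = 5.48e-33). In NGP it was -0.14 ± 0.048 (adjusted p = 0.0201), and that call was lost without NGP DMSO replicate 1 (-0.13), without NGP JSK591 replicate 1 (-0.13), with total count scaling (-0.11) and with no filter on low counts (-0.14). The difference of -1.19 ± 0.060 passed (adjusted p = 5.08e-24).

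STX1A, syntaxin 1A of the plasma membrane, had 17.8 and 16.2 CPM in NGP with JSK591, against 21.4 and 21.8 CPM with DMSO, and 42.5 and 44.9 CPM in CHLA-20 with JSK591, against 52.8 and 56.5 CPM with DMSO. It was lower with JSK591 in both lines, without overlap. On the log2 scale the changes were -0.35 ± 0.070 (adjusted p = 4.77e-05) in NGP and -0.32 ± 0.054 (adjusted p = 1.32e-06) in CHLA-20, and the difference of -0.02 ± 0.088 did not pass. The gene BUD23 on the opposite strand, with 21672 counts over the libraries, overlaps 17.9% of the exon bases of STX1A.

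SYN1, synapsin I, which tethers vesicles in reserve, had 37.7 and 35.5 CPM in NGP with JSK591, against 44.5 and 46.5 CPM with DMSO. CHLA-20 libraries had 58.5 and 54.4 CPM with JSK591, against 62.7 and 63.8 CPM with DMSO. The values were lower with JSK591 in both lines. The log2 change was -0.32 ± 0.054 (adjusted p = 2.65e-06) in NGP and -0.16 ± 0.050 (adjusted p = 0.00606) in CHLA-20. The CHLA-20 call was lost without CHLA-20 DMSO replicate 2 (-0.13), without CHLA-20 JSK591 replicate 2 (-0.11) and with the trend with GC content removed (-0.02). The difference between lines of SYN1, -0.15 ± 0.074, did not pass, but passed without NGP DMSO replicate 1 (-0.24), without NGP JSK591 replicate 1 (-0.25) and with the GC trend removed (-0.36).

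SYT1, the calcium sensor of fast release, had 170 and 171 CPM in NGP with JSK591, against 189 and 188 CPM with DMSO, and 333 and 340 CPM in CHLA-20 with JSK591, against 396 and 393 CPM with DMSO. It fell in both, with log2 changes of -0.14 ± 0.038 in NGP (adjusted p = 0.00156) and -0.23 ± 0.036 in CHLA-20 (adjusted p = 2.47e-07). RAB3A, a small GTPase of synaptic vesicles, had 93.7 and 92.3 CPM in NGP with JSK591, against 96.8 and 106 CPM with DMSO, and 138 and 129 CPM in CHLA-20 with JSK591, against 149 and 148 CPM with DMSO. Its log2 changes were -0.12 ± 0.044 (adjusted p = 0.0216) in NGP and -0.15 ± 0.042 (adjusted p = 0.00308) in CHLA-20. For RAB3A the NGP call was lost without NGP DMSO replicate 2 (-0.07) without NGP JSK591 replicate 2 (-0.11), with total count scaling (-0.10) and with low counts unfiltered (-0.12). The CHLA-20 call of RAB3A was lost without CHLA-20 JSK591 replicate 2 (-0.10) and with the GC trend removed (-0.03), under which its difference between lines, 0.02 ± 0.061, turned to -0.15 and passed. The difference of SYT1, 0.09 ± 0.052, did not pass, but passed at 0.14 with the GC trend removed.

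SNAP25, the membrane-anchored SNARE, had 63.3 and 65.2 CPM in NGP with JSK591, against 61.9 and 60.6 CPM with DMSO, and 129 and 132 CPM in CHLA-20 with JSK591, against 115 and 118 CPM with DMSO. Its log2 change passed in CHLA-20 (0.17 ± 0.041, adjusted p = 0.000699) but not in NGP (0.07 ± 0.046), and the difference of -0.10 ± 0.062 did not pass. SYP and VAMP2, abundant proteins of the vesicle membrane, passed in neither line. SYP had 53.0 and 54.4 CPM in NGP with JSK591, against 52.31 and 52.33 CPM with DMSO, and 103 and 97.4 CPM in CHLA-20 with JSK591, against 104 and 109 CPM with DMSO. VAMP2 had 61.50 and 61.53 CPM in NGP with JSK591, against 62.0 and 67.2 CPM with DMSO, and 95.9 and 88.8 CPM in CHLA-20 with JSK591, against 93.6 and 97.3 CPM with DMSO. The log2 changes of SYP were 0.04 ± 0.049 in NGP and -0.09 ± 0.043 in CHLA-20, and those of VAMP2 -0.07 ± 0.049 in NGP and -0.05 ± 0.045 in CHLA-20. The NGP change of VAMP2 passed without NGP DMSO replicate 1 (-0.15) and with the GC trend removed (-0.12). SYT6 had 50.5 and 51.5 CPM in NGP with JSK591, against 57.4 and 58.5 CPM with DMSO, with a log2 change of -0.18 ± 0.054 (adjusted p = 0.00521). Levels in CHLA-20 were 0 and 1 counts with JSK591 and 0 and 2 counts with DMSO, which gives no usable change.

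**Figure D3:**
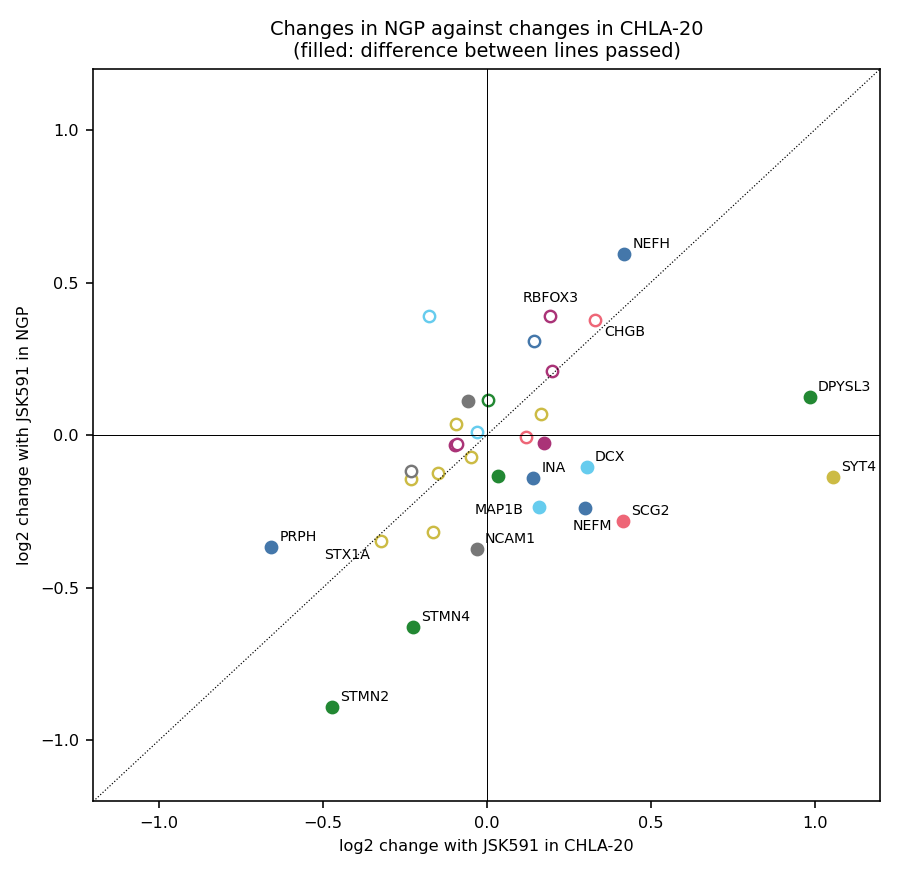
Log2 change with JSK591 in NGP (vertical axis) against that in CHLA-20 (horizontal axis) for each tested member other than NRN1 and SYT6, coloured by role as in the other plots, filled where the difference between lines passed and with a dotted line of equal change. SYT4 and DPYSL3 lie far to the right near 0 in NGP, SCG2, NEFM, MAP1B and INA lie where CHLA-20 rose and NGP fell, and STMN2, STMN4 and PRPH lie where both fell.

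The granins are acidic proteins packed into dense-core granules, of which CHGA, CHGB and SCG2 are the main ones. SCG3 links granins to the granule membrane, and SCG5 is a chaperone of a prohormone convertase. All 3 tested rose in CHLA-20, while in NGP 1 rose and 1 fell. CHGB had 159 and 162 CPM in NGP with JSK591, against 123 and 124 CPM with DMSO. In CHLA-20 it had 208 and 207 CPM with JSK591, against 161 and 169 CPM with DMSO. It was higher with JSK591 in both lines, without overlap. The log2 changes stood at 0.38 ± 0.040 (adjusted p = 6.97e-12) in NGP and 0.33 ± 0.038 (adjusted p = 1.33e-10) in CHLA-20, with a difference of 0.05 ± 0.055 that did not pass. SCG2 had 109 and 111 CPM in NGP with JSK591, against 136 and 133 CPM with DMSO. CHLA-20 libraries had 443 and 453 CPM with JSK591, against 337 and 334 CPM with DMSO. It was lower with JSK591 in NGP and higher in CHLA-20, both without overlap. The log2 changes were -0.28 ± 0.040 (adjusted p = 3.61e-08) in NGP and 0.42 ± 0.036 (adjusted p = 4.00e-15) in CHLA-20, with a difference of -0.70 ± 0.053 (adjusted p = 2.37e-16).

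SCG3 had 237 and 246 CPM in NGP with JSK591, against 245 and 240 CPM with DMSO, and in CHLA-20 173 and 177 CPM with JSK591, against 162 and 160 CPM with DMSO. The NGP groups overlapped, with a log2 change of -0.00 ± 0.037. In CHLA-20 the change was 0.12 ± 0.039 (adjusted p = 0.00983), lost without CHLA-20 JSK591 replicate 2 (0.11). The difference of SCG3, -0.12 ± 0.053, did not pass, but passed without CHLA-20 DMSO replicate 2 (-0.16), NGP DMSO replicate 1 (-0.16) or NGP DMSO replicate 2 (-0.18), and with DESeq2 (-0.15).

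CHGA, chromogranin A, is a common marker of neuroendocrine tumours, yet it had 1 count over all 8 libraries. It begins a run of 30 neighbouring coding genes on chromosome 14, between 92923080 and 94624646 in GRCh38, each with at most 80 counts over the 8 libraries, and 22 of the 30 had exactly 0. The run holds genes that most cells use, such as DDX24, UBR7 and BTBD7. GOLGA5, just before it, had 12924 counts and GSC, just after it, 371. MAPT, with 25 counts in all, lies in a run of 7 coding genes on chromosome 17 (45393902 to 46028334), of which 6 had 0 counts, between MAP3K14 with 2349 counts and KANSL1 with 112. That run ends at KANSL1 by the limit of 80 counts, and KANSL1 itself averaged 0.0741 CPM in CHLA-20 and 0.754 CPM in NGP. Farther on, NSF, whose start lies 696 kb from that of MAPT, had 5 counts, with LRRC37A at 597 between them. SCG5 had 4 counts and stood alone between ARHGAP11A with 2536 and GREM1 with 116. Of all 19940 coding genes, 32.5% were at or under the same limit of 80 counts. Because broadly used genes are at 0 in the same runs, no absence of CHGA or MAPT transcripts is read from these counts, and what lies behind the runs was not tested. For SCG5 no absence is read either, as what lies behind its 4 counts was not tested.

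**Figure D4:**
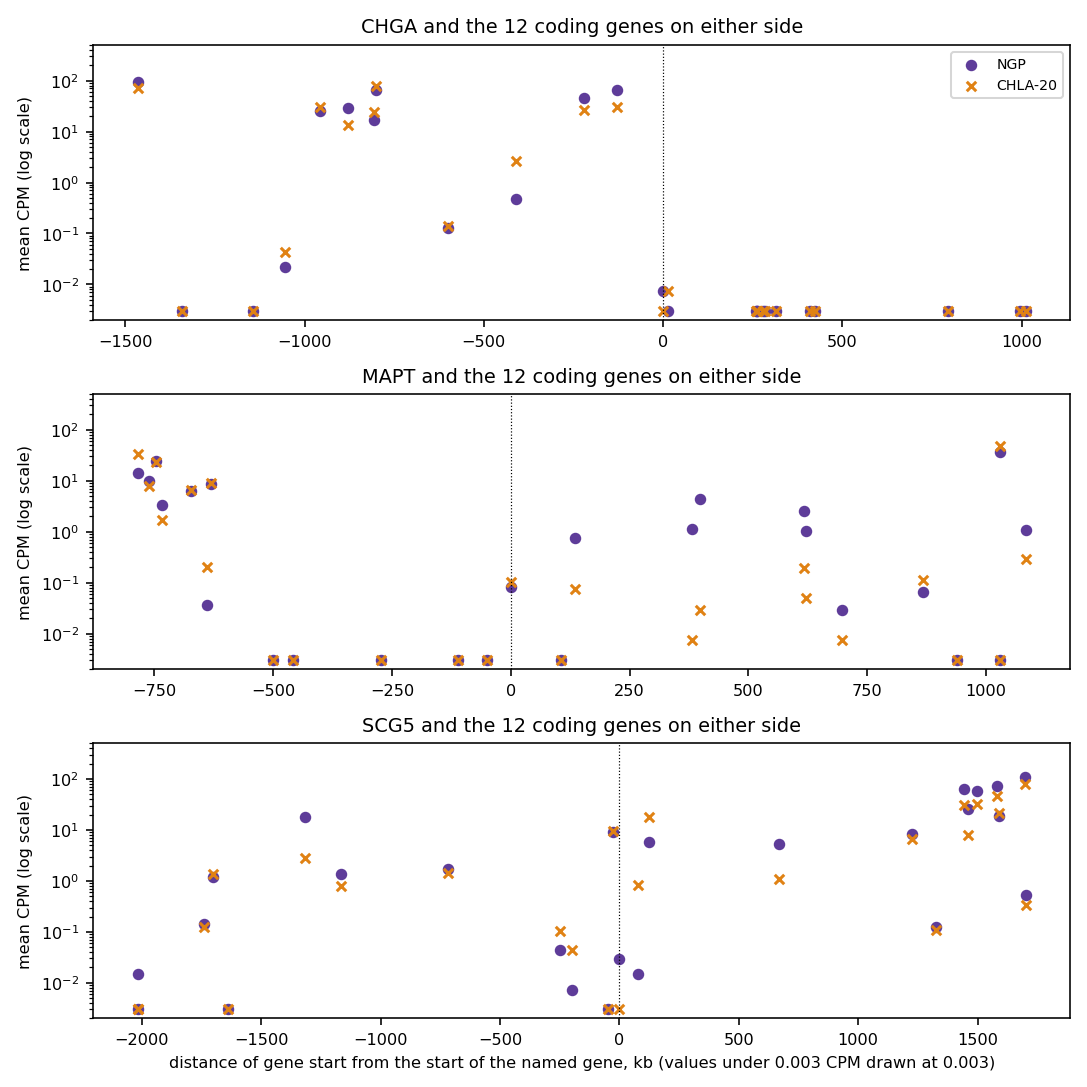
Mean CPM (vertical log axis) of coding genes in NGP (purple circles) and CHLA-20 (orange crosses) against the distance in kb of each gene's start from that of CHGA, MAPT or SCG5, which stands at 0 on the dotted line. To the right of CHGA the genes drawn lie at or near the bottom of the scale in both lines, MAPT has genes at 0 on both sides, and SCG5 has counted neighbours on both.

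The neuronal RNA-binding proteins bind AU-rich sequences (the ELAVL family) or direct neuronal splicing (the RBFOX family). In NGP 2 of 5 rose and none fell, and in CHLA-20 2 rose and 1 fell. ELAVL4, HuD, had 152.9 and 152.6 CPM in NGP with JSK591, against 135 and 129 CPM with DMSO, and in CHLA-20 352 and 365 CPM with JSK591, against 319 and 306 CPM with DMSO. It was higher with JSK591 in both lines, by 0.21 ± 0.040 on the log2 scale (adjusted p = 1.74e-05) in NGP and 0.20 ± 0.037 (adjusted p = 1.06e-05) in CHLA-20, and the difference of 0.01 ± 0.054 did not pass. ELAVL2, HuB, had 41.5 and 45.7 CPM in NGP with JSK591, against 44.7 and 44.1 CPM with DMSO, and 67.9 and 66.4 CPM in CHLA-20 with JSK591, against 58.6 and 60.3 CPM with DMSO. The NGP groups overlapped (-0.03 ± 0.053) and the CHLA-20 rise passed (0.18 ± 0.049, adjusted p = 0.00256). The difference of ELAVL2, -0.20 ± 0.072 (adjusted p = 0.0286), was lost without CHLA-20 DMSO replicate 1 (-0.18), CHLA-20 JSK591 replicate 1 (-0.19) or NGP JSK591 replicate 1 (-0.18), with the GC trend removed (-0.14) and with low counts unfiltered (-0.21).

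ELAVL3, HuC, had 358 and 341 CPM in NGP with JSK591, against 347 and 367 CPM with DMSO, and 476 and 464 CPM in CHLA-20 with JSK591, against 485 and 520 CPM with DMSO. Its CHLA-20 fall of -0.10 ± 0.038 (adjusted p = 0.036) was lost under 13 of 17 alternatives, at -0.11 to -0.003. Among these were the ones without any 1 library other than CHLA-20 DMSO replicate 1 and NGP JSK591 replicate 2. In NGP the change of ELAVL3 was -0.03 ± 0.038 and did not pass, but with the GC trend removed it was -0.09 and passed. RBFOX3, the antigen NeuN, had 71.8 and 69.5 CPM in NGP with JSK591, against 53.4 and 54.3 CPM with DMSO. Levels in CHLA-20 were 2.22 and 1.87 CPM with JSK591, against 1.83 and 1.75 CPM with DMSO. The NGP rise was 0.39 ± 0.051 (adjusted p = 3.51e-09), while the CHLA-20 change of 0.19 ± 0.18, from 59 to 77 counts a library, did not pass. The difference of RBFOX3 did not pass either (0.20 ± 0.19). RBFOX1 had 13.0 and 14.5 CPM in NGP with JSK591, against 15.3 and 12.7 CPM with DMSO, and 25.9 and 26.6 CPM in CHLA-20 with JSK591, against 28.6 and 27.3 CPM with DMSO, and passed in neither line.

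NCAM1 and L1CAM are immunoglobulin-type adhesion molecules of axons. NCAM1 had 121 and 129 CPM in NGP with JSK591, against 160.0 and 164 CPM with DMSO. In CHLA-20 it had 265 and 264 CPM with JSK591, against 275 and 265 CPM with DMSO. The NGP libraries were clearly lower with JSK591 and the CHLA-20 ones close together. The log2 change of NCAM1 was -0.37 ± 0.040 in NGP (adjusted p = 1.34e-11) and -0.03 ± 0.037 in CHLA-20, with a difference of -0.34 ± 0.055 (adjusted p = 1.06e-06). UCHL1 had 499.5 and 509 CPM in NGP with JSK591, against 537 and 556 CPM with DMSO, and 523 and 529 CPM in CHLA-20 with JSK591, against 629 and 605 CPM with DMSO. It was lower with JSK591 in both lines, with log2 changes of -0.12 ± 0.036 in NGP (adjusted p = 0.0079) and -0.23 ± 0.036 in CHLA-20 (adjusted p = 2.69e-07). Without NGP DMSO replicate 2 the NGP call of UCHL1 was lost (-0.10).

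L1CAM had 164 and 160 CPM in NGP with JSK591, against 149 and 151 CPM with DMSO, and 321 and 315 CPM in CHLA-20 with JSK591, against 333 and 327 CPM with DMSO. It was a little higher with JSK591 in NGP and a little lower in CHLA-20. The NGP change of 0.11 ± 0.039 (adjusted p = 0.0195) was lost without CHLA-20 DMSO replicate 2 (0.09), NGP DMSO replicate 1 (0.07), NGP DMSO replicate 2 (0.11) or NGP JSK591 replicate 1 (0.07), with DESeq2 (0.09) and with the GC trend removed (0.05). The CHLA-20 change, -0.06 ± 0.036, did not pass. The difference of L1CAM, 0.17 ± 0.053 (adjusted p = 0.0129), was lost without any 1 library other than CHLA-20 JSK591 replicate 1 and NGP JSK591 replicate 2, at 0.09 to 0.15, and turned to -0.01 with the GC trend removed.

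The lines differed far more from each other than with treatment. With DMSO alone, 7 members were higher in NGP than in CHLA-20 and 27 lower, of 35 tested. That is 97.1%, against 75.5% of all genes (36.6% higher and 38.9% lower) and 86.1% of genes with a mean of at least 10 CPM (43.1% higher and 43.0% lower). The lines did not overlap for 34 of the 35, against 86.6% of all genes. The median log2 difference, NGP minus CHLA-20, was -0.56 for members and -0.02 over all genes. The neurofilament light and medium chains differed most among those lower in NGP, with log2 differences of -5.64 ± 0.060 for NEFL and -4.44 ± 0.052 for NEFM. NEFL thus had 5.87 and 5.96 CPM in NGP, against 290 and 299 CPM in CHLA-20. INA, of the same family, was slightly higher in NGP (0.37 ± 0.037), NEFH lower (-1.55 ± 0.043) and PRPH lower (-0.49 ± 0.039).

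STMN2 (-2.65 ± 0.037), SYT4 (-2.60 ± 0.043), STX1A (-1.34 ± 0.060), SCG2 (-1.32 ± 0.038), ELAVL4 (-1.24 ± 0.039) and L1CAM (-1.14 ± 0.038) were also lower in NGP on the log2 scale. All 9 synaptic vesicle and SNARE genes passed, 8 lower in NGP and SYT6 higher. With DMSO, NRN1 had 4674 counts in NGP, against 1 in CHLA-20, a ratio of 4718 with a 95% interval of 846 to 186395 (exact, counting error only). SYT6 had 3876 counts in NGP, against 2 in CHLA-20, a ratio of 1956 with an interval of 541 to 16160. With JSK591 both stayed far apart, at 3117 against 6 counts for NRN1 (ratio 517, interval 237 to 1409) and 3502 against 1 for SYT6 (ratio 3483, interval 625 to 137620). RBFOX3 was 30.0-fold higher in NGP (4.91 ± 0.092), DPYSL3 2.79-fold (1.48 ± 0.044) and MAP1B 1.89-fold (0.92 ± 0.036). TUBB3 did not pass (0.20 ± 0.17), but with the GC trend removed it was 0.53 and passed. STMN3 (-0.21 ± 0.043) lost its call without NGP DMSO replicate 1 (-0.07) and turned to 0.17 with the GC trend removed, and UCHL1 (-0.17 ± 0.036) turned to 0.09 there.

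**Figure D5:**
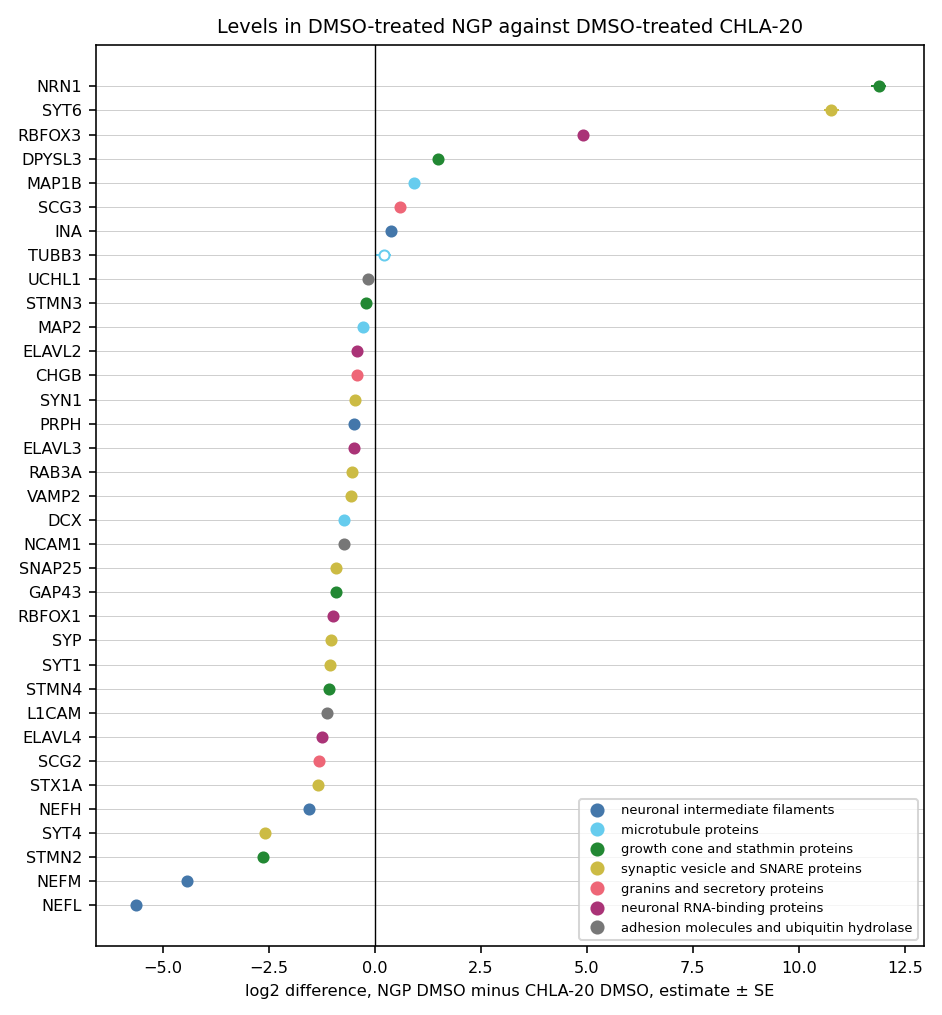
Log2 difference between DMSO-treated NGP and DMSO-treated CHLA-20 (horizontal axis, NGP minus CHLA-20, estimate ± SE) for the 35 tested members, sorted and coloured by role, with an open circle where the difference did not pass. NRN1, SYT6 and RBFOX3 lie far to the right, NEFM and NEFL far to the left, and most of the remaining members lie left of 0.

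Other genes of the same systems were counted from lists written beside the members. Over all genes 36.2% passed in NGP and 39.4% in CHLA-20, and among genes with a mean of at least 10 CPM 52.3% in NGP and 57.1% in CHLA-20. The shares passing in the 6 lists of this paragraph were 48.5% to 64.5% in NGP and 48.5% to 75.0% in CHLA-20. Of 38 further synaptic release genes tested, 8 rose and 13 fell in NGP with JSK591, and 5 rose and 18 fell in CHLA-20. Among those that passed without overlap, VAMP1 rose most in NGP (0.73 ± 0.13, log2 ± SE), to 6.26 CPM with JSK591 against 3.78 CPM with DMSO. In CHLA-20 SYT2 fell most among them (-1.27 ± 0.24), to 0.896 CPM with JSK591 against 2.16 CPM with DMSO. Of 19 dense-core granule and neuropeptide genes, 7 rose and 3 fell in NGP, and 8 rose and 5 fell in CHLA-20. ADCYAP1, which encodes the neuropeptide PACAP, rose most in both, by 1.49 ± 0.35 in NGP, where it averaged 0.932 CPM with JSK591 and 0.329 CPM with DMSO, and by 1.41 ± 0.14 in CHLA-20, where it averaged 8.98 CPM with JSK591 and 3.38 CPM with DMSO. Of 31 further neuronal cytoskeleton genes, 14 rose and 6 fell in NGP, and 9 rose and 13 fell in CHLA-20. Of 33 postsynaptic and channel genes, 12 rose and 4 fell in NGP, and 6 rose and 10 fell in CHLA-20. CHRNA3, a subunit of the ganglionic nicotinic receptor, rose in CHLA-20 by 1.25 ± 0.041, to 172 CPM with JSK591 against 72.4 CPM with DMSO. Of 20 genes of neuronal RNA processing and the REST complex, 4 rose and 7 fell in NGP, and 3 rose and 12 fell in CHLA-20. As a set beside these, 23 broadly expressed relatives of the members had 6 rises and 6 falls in NGP, and 8 rises and 5 falls in CHLA-20.

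Neuroblastoma identity markers gave 4 rises and 3 falls of 10 in NGP and 2 rises and 6 falls in CHLA-20. HAND2 had a log2 change of -0.55 ± 0.037 in CHLA-20. The part of these changes in those of the members was not tested.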

How the data were processed

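Messenger RNA was counted in 8 libraries, 2 in each of 4 groups. The authors deposited raw counts per gene, 1 library a file. The submitters' processing notes name STAR, HTSeq, DESeq2 and GRCh38 (hg38). Versions, annotation, counting mode and strand setting are not given in the sources used here. All 58721 identifiers were found in GENCODE 29, the source of symbols, lengths and coordinates. Lines for reads outside genes, ambiguous reads and multiple alignments, 31.7% to 35.2% of each file's total, were left out of library sizes and tests.

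Genes were kept by filterByExpr (19395), scaled by TMM and fitted in edgeR 4.0.16 (limma 3.58.1, R 4.3.3) with a quasi-likelihood model of the 4 groups and no replicate block. Common dispersion was 7.61e-04, a biological coefficient of variation of 2.76%, with 4 residual degrees of freedom. The fit also borrows spread from all genes tested, so p-values do not rest on each gene's own replicates alone. P-values were Benjamini-Hochberg adjusted over all genes tested, at a threshold of 0.05. SE values derive from the F statistic. The 3 comparisons that involve treatment and the comparison of DMSO groups share libraries. At this depth 3 counts, the limit that a count of 0 allows, are at most 0.0904 CPM. Intervals cover counting error only. Libraries of the same replicate number did not deviate together (correlations -0.0269 to 0.0122). The script was tested on simulated data. Alternatives were DESeq2 1.42.0, other scalings and filters, replicate blocks, a fit of 4 libraries, removal of the trend with GC content, and each library left out. Python 3.11.15 prepared the tables.

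The members and lists were chosen with earlier results of these data known. Described with a value in every library were the 2 members of each role and comparison with the largest change past the threshold, and most others; genes outside the members were, per list and treatment comparison, among the 2 largest rises and falls whose groups did not overlap, plus REST and PRMT5. Some genes of these lists are counted but not reported here by name.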

Additional observations from a re-analysis of the deposited data

Results flagged for a closer look

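The change with JSK591 differed between the lines, by a test of the difference itself (NGP minus CHLA-20, log2, edgeR), for 16 of the 35 members tested, or 45.7%, against 27.7% of all genes. Among genes with a mean of at least 10 CPM the share was 42.9%, and among the 34 members at that level 47.1%. For 13 the NGP change was the lower. These were NRN1 (-2.93), SYT4 (-1.19), DPYSL3 (-0.86), SCG2 (-0.70), NEFM (-0.54), STMN2 (-0.42), DCX (-0.41), STMN4 (-0.41), MAP1B (-0.40), NCAM1 (-0.34), INA (-0.28), ELAVL2 (-0.20) and STMN3 (-0.17). For PRPH (0.29), NEFH (0.17) and L1CAM (0.17) the NGP change was the higher. Of the 13 lower differences 10 passed under each of the 16 alternatives run, and NRN1, ELAVL2 and STMN3 did not. None of the 3 higher ones passed under all of them. NRN1 rests on 7 counts in CHLA-20. The lines also differ in medium, which cannot be told apart from the line.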

How the results depend on the processing

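Of 140 pairs of a member and a comparison, 99 passed, 76 of them under every alternative that could be run for them (at most 17), 22 were lost under at least 1, 9 others passed under at least 1, and 4 pairs turned. A fit of only the 4 libraries compared gives no difference between lines, and NRN1 and SYT6 have no value under a minimum of 10 counts in every library. Where an alternative turned the sign of a value that passed in neither fit, it was not counted as turned. With the trend with GC content removed, the differences between lines of RAB3A (-0.15), L1CAM (-0.012), PHOX2A (-0.078) and SRRM3 (-0.18), the CHLA-20 change of NLGN2 (0.039), and the NGP minus CHLA-20 DMSO values of STMN3 (0.17), UCHL1 (0.093), HAND2 (0.0080) and TUBB2B (0.17) turned. Members higher in NGP numbered 9, against 5 with DESeq2, 5 with the GC trend removed and 5 to 9 with 1 library left out. Members with a higher change in NGP than in CHLA-20 numbered 3, against 1 with the GC trend removed, SYT1 (0.14), which was not among the 3. Over all genes, DESeq2 called 2083 higher in NGP, against 3266, and 1850 with a higher change in NGP, against 2950. The replicate block moved 1 member's call, DCX in NGP (-0.10), and no other. Replicate numbers did not pair the libraries. With 1 library left out, the lone library of its group is assumed to vary like the other groups. The cause of these shifts was not tested. With 2 libraries a group, small changes near the threshold are the least certain.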
